A study of Mus musculus with 6 samples.

Results

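The glycine receptor subunit genes Glra1, Glra2, Glra3, Glra4 and Glrb and the scaffold gene Gphn, which encodes gephyrin, were examined in neurons of the preBötzinger complex, the brainstem site where the rhythm of inspiration arises. The 6 genes were taken by name as the complete glycine receptor family of the mouse and its postsynaptic anchor, out of 49568 gene names with a value in every sample. Each of the 6 samples sequenced pooled the RNA of 15 neurons and came from a different mouse at postnatal day 2. All 6 mice carried the same alleles, Dbx1CreERT2 and Rosa26tdTomato, in which tamoxifen given to the pregnant dam turned on tdTomato in cells derived from progenitors that expressed Dbx1. The 3 Dbx1 samples held neurons picked for their red fluorescence and the 3 non-Dbx1 samples held neuronal somata of the same region without it. The groups were therefore defined by fluorescence under the microscope and not by a second marker, and each sample pooled cells that can differ in type. The values are RPKM, reads on a gene scaled to its exon length and to the reads assigned to genes in the sample, so levels are per length, and an order of genes by level depends on the exon lengths used.

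Glycine receptors are chloride channels built from alpha and beta subunits, and the alpha subunits carry most of the site at which glycine opens the channel. The beta subunit, encoded by Glrb, does not form a channel by itself, and it binds gephyrin, which holds the receptor beneath the glycinergic terminal. In spinal cord and brainstem the alpha2 subunit predominates before birth and is joined and then outnumbered by alpha1 together with beta as synapses mature. Gephyrin also anchors many GABA-A receptors, the other chloride channels of inhibitory synapses, and it is an enzyme of molybdenum cofactor synthesis in every tissue.

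The alpha subunit genes are close relatives, so it matters for the values that reads can be assigned to each of them. The stretch of coding sequence that enters the first membrane-spanning segment shows how alike they are at their most conserved. The sequences below were read from GENCODE vM21 transcripts on GRCm38, run 5′ to 3′ along the coding strand, lie within 1 exon each, and have in capitals the bases that differ from Glra1.
Glra1: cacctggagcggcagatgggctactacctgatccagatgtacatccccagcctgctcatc
Glra2: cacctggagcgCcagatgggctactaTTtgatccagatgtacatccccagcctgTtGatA
Glra3: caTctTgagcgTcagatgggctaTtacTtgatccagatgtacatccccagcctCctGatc
Glra4: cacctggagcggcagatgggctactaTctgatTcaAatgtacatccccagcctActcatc
Glrb: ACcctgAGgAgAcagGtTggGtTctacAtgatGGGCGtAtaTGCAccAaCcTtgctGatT
These 60 bases lie at chr11:55527381-55527440 on the minus strand for Glra1, at chrX:165252346-165252405 on the minus strand for Glra2 and at chr8:56089013-56089072 on the plus strand for Glra3. They lie at chrX:136767310-136767369 on the minus strand for Glra4 and at chr3:80855849-80855908 on the minus strand for Glrb. Glra4 differed from Glra1 at 4 of the 60 positions, Glra2 at 6, Glra3 at 7 and Glrb at 26. Even in the most alike part of their coding sequences, no pair of alpha genes was identical over 50 bases. The longest run of coding bases shared by any pair of alpha genes was 17 to 26 bases, and between an alpha gene and Glrb it was 11 to 14 bases. The pair with the most alike 50 bases, Glra1 and Glra4, still differed there at 2 of them. No 50-base word of any member's transcripts was found in another member.

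The 6 genes lie apart from each other in the genome, with only Glra2 and Glra4 on the same chromosome. On GRCm38, Glra1 (ENSMUSG00000000263) spans chr11:55514238-55608198, Glra2 (ENSMUSG00000018589) chrX:165129017-165327393 and Glra3 (ENSMUSG00000038257) chr8:55940460-56130070. Glra4 (ENSMUSG00000018595) spans chrX:136757674-136780141, Glrb (ENSMUSG00000028020) chr3:80843599-80913660 and Gphn (ENSMUSG00000047454) chr12:78226379-78684772. Coding lengths ran from 1356 bases in Glra2 to 2316 in Gphn, and the representative transcripts had 9 or 10 exons in the receptor genes and 23 in Gphn. The exons of Glra1 overlap those of the antisense gene Gm12236 over 141 bases and those of Gphn overlap Gm48226 over 147 bases. Counting did not use strand, so reads from those bases cannot be told apart from reads of the overlapping gene. Of the 50-base words in the transcripts, 3.74% for Glra1, 2.58% for Gphn and 2.65% for Glrb also occurred in another gene, and none did for Glra2, Glra3 or Glra4.

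Between 6464675 and 9432958 reads per sample fell on genes, as recovered from the steps between the deposited values. Summed levels of 6 neuronal marker genes were 994 to 1710 RPKM in Dbx1 samples, against 993 to 1380 in non-Dbx1 samples, and none of these genes was at 0. Of the 6, 1 gene, Eno2, had non-overlapping groups, higher in Dbx1, beside 5.35% of the 17614 genes compared below. Dbx1 itself had an RPKM of 0 in all 6 samples, so its own RNA does not check the labels. Slc17a6, the vesicular transporter of glutamatergic neurons, was at 47.2 to 128 RPKM in the Dbx1 and 13.6 to 35.1 in the non-Dbx1 samples, without overlap. Transcripts of inhibitory neurons did not separate the groups. Slc6a5, which encodes a glycine transporter, was at 24.2, 13.1 and 64.2 RPKM in Dbx1 samples, against 53.6, 17.5 and 40.9 in non-Dbx1 samples. The groups also overlapped for Slc32a1 and for Gad1 and Gad2, which encode glutamic acid decarboxylases. Haemoglobin transcripts, which mark erythroid cells, summed to 89.6 to 505 RPKM in Dbx1 samples, against 732 to 13900 in non-Dbx1 samples. All 4 haemoglobin genes had non-overlapping groups, lower in Dbx1, beside 5.24% of the 17614 genes compared below. Oligodendrocyte markers summed to 16.4 to 73.6 RPKM in Dbx1 samples, against 46.5 to 388 in non-Dbx1 samples. Of these 6 genes, 2 had non-overlapping groups, also lower in Dbx1 and beside the same 5.24%. The highest sums of both lists were in non-Dbx1 sample 1. The sum for 5 astrocyte genes was 21.4 to 26.6 RPKM in Dbx1 and 24.4 to 39.5 in non-Dbx1 samples, and for 4 microglial genes 0.202 to 10.4 and 0.739 to 13.3. Among the astrocyte genes, Gfap was higher and Slc1a3 lower in Dbx1 without overlap, beside the same 5.35% and 5.24%. The 3 endothelial genes summed to at most 0.507 RPKM in the Dbx1 samples and reached 65.4 in non-Dbx1 sample 2. The 4 motor neuron genes summed to 1.34 to 8.58 RPKM in Dbx1 and 3.0 to 62.3 in non-Dbx1 samples. Of 3 serotonergic markers, Slc6a4 and Fev were at 0 in every sample and Tph2 was at 3.36 RPKM in Dbx1 sample 1 and 0 in the others. The part of these markers in the differences described next was not tested.

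Glrb and Gphn stood highest among the 6 genes, Glra2 followed as the leading alpha gene, Glra3 and Glra1 were lower, and Glra4 was found in a single sample. Mean RPKM over all 6 samples was 31.9 ± 8.97 (SD, n = 6) for Gphn and 28.1 ± 11.3 for Glrb, which placed them above 93.9% and 93.2% of the 27067 genes with any reads. Glra2 had a mean of 14.8 ± 12.5 RPKM and was above 88.0% of those genes. Glra3 had a mean of 4.90 ± 2.41 RPKM and Glra1 of 3.32 ± 1.92 RPKM, above 73.5% and 67.3% of those genes. The receptor and its scaffold were thus read from genes in the upper part of the expression range, except for Glra4.

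Neighbours in this order were compared within each sample on the log2(RPKM + 1) scale by exact two-sided sign-change tests, adjusted by the Benjamini-Hochberg method over the 5 neighbouring pairs. As deposited, Glra2 exceeded Glra3 in 6 of 6 samples by 1.39 ± 1.38 (SD), which gives the smallest exact p that 6 samples can reach, and adjusted p = 0.104. Glrb exceeded Glra2 in 5 of 6 samples by 1.07 ± 0.83 (exact test, adjusted p = 0.104), the exception being Dbx1 sample 2. Glra1 exceeded Glra4 in 5 of 6 samples by 1.76 ± 1.13 (exact test, adjusted p = 0.104). Neighbours whose order was less regular were Gphn and Glrb, 0.21 ± 0.49 apart with Gphn higher in 4 of 6 samples (exact test, adjusted p = 0.469), and Glra3 and Glra1, 0.34 ± 1.39 apart with Glra3 higher in 5 of 6 (exact test, adjusted p = 0.531). Genes further apart in the order kept it more often, and as deposited Glra2 exceeded Glra1 in 6 of 6 samples with a ratio of mean RPKM of 4.47. Gphn and Glrb each exceeded both Glra3 and Glra1 in all 6 samples.

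Part of this order turned on how exon length was counted. For most genes, the deposited values divide by the sum over all exon identifiers of a gene, which counts overlapping versions of an exon repeatedly. That sum, taken from GENCODE vM21, gave whole reads for 12069 of the 15719 genes for which it differs from the length of the merged exons, and the merged length alone did so for 41, where whole means within 0.002 reads, or in proportion above 10000 reads. For Glrb, with 6 annotated transcripts, the length behind the RPKM was 8561 bases against 4655 merged bases. For Gphn it was 3397 bases against 3749, for Glra1 3548 against 2414, for Glra3 10094 against 9208, and for Glra2, with 1 transcript, 3150 for both. Among the members, Gphn was the exception, since its exon identifiers in vM21 sum to 5341 bases. Its length is the smallest that gives whole reads in all 6 samples, and it is close to the 3399 bases of the exon identifiers in vM21 without 4 exons at transcript ends, a sum looked for after its value was seen. Per merged exon length, mean levels were 51.7 ± 20.8 RPKM (SD, n = 6) for Glrb, 28.9 ± 8.13 for Gphn, 14.8 ± 12.5 for Glra2, 5.37 ± 2.64 for Glra3 and 4.89 ± 2.82 for Glra1. Glrb was then above Gphn in each of the 6 samples, by 0.78 on the log2(RPKM + 1) scale (exact sign-change test, adjusted p = 0.0781). Per merged exon length Glra2 was above Glra1 in 4 of 6 samples and above Glra3 in 5 of 6, and Glra3 was above Glra1 in 3 of 6. Glra2 was below Glra1 in Dbx1 sample 3 (6.62 against 8.63 RPKM) and in non-Dbx1 sample 1 (7.17 against 7.63 RPKM), and below Glra3 in Dbx1 sample 3 (7.09 RPKM). Neither length changes the ratio of a gene's RPKM between samples. Differences on the log2(RPKM + 1) scale can shift with the length, and group differences of single genes on it were not recomputed on merged lengths.

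**Figure D1:**
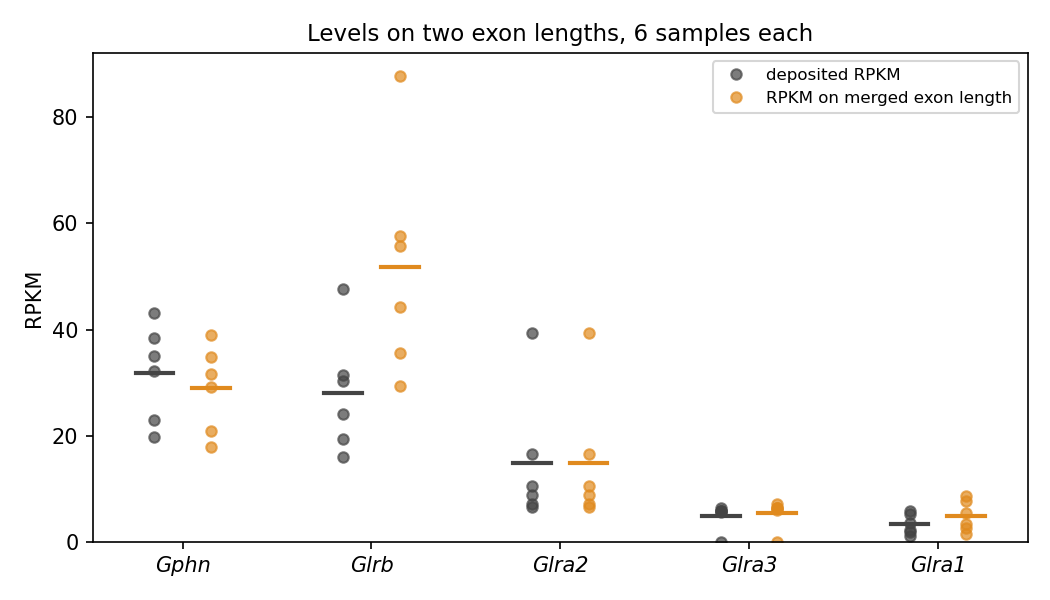
RPKM (vertical axis) of 5 member genes in the 6 samples, as deposited (grey) and per merged exon length of GENCODE vM21 (orange), with a line at the mean of each. Deposited values put Gphn (mean 31.9) beside Glrb (mean 28.1), and merged lengths put Glrb (mean 51.7) above Gphn (mean 28.9). The means of Glra2, Glra3 and Glra1 stay below both. In Dbx1 sample 2, Glra2 (39.3) is above Gphn on either length and above Glrb as deposited.

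Dbx1 and non-Dbx1 samples were compared gene by gene in limma, on log2(RPKM + 1), for the 17614 genes above 0 in at least 3 samples. L2FC is the difference of group means on that scale, positive where Dbx1 was higher, and FDR is the Benjamini-Hochberg adjusted p over all of these genes, with a threshold of 0.1. None of the 5 members tested passed it, and the lowest FDR among them was 0.912 in limma. Of all genes tested, 0.0% passed it as higher in Dbx1 and 0.00568% as lower, which is 1 gene, D930028M14Rik, named after its values were seen. With DESeq2 on counts, the paper reports several genes at this threshold, among them Hif1a and Syt10 higher in Dbx1 and Gata2 lower. The shares given here are those of limma on RPKM. At an unadjusted p under 0.05 in limma, 2.73% of all tested genes were higher and 2.48% lower in Dbx1, and 1 of the 5 members, Glrb, was among the higher. Groups did not overlap for 10.6% of all tested genes, 5.35% higher and 5.24% lower in Dbx1, and for Glrb and Glra3 among the members, both higher. The median L2FC of the 5 members was 0.84 beside 0.01 for all tested genes, with 4 members above 0 and 1 below. In pools of cells, fewer cells that use a gene and less RNA of it per cell cannot be told apart.

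**Figure D2:**
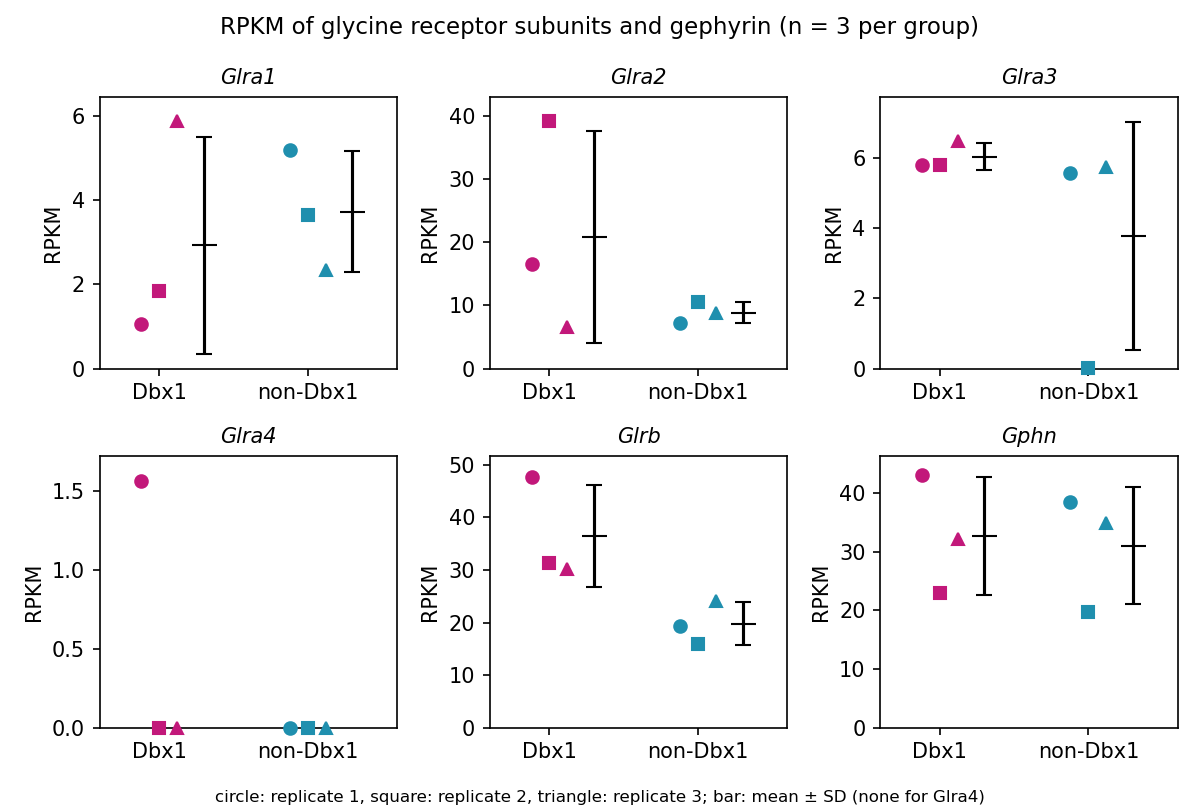
RPKM (vertical axes, each from 0) of the 6 member genes in the 3 Dbx1 and 3 non-Dbx1 samples, with symbols for the replicate and bars for mean ± SD, which are left out for Glra4. Groups are separate for Glrb (30.3 to 47.7 against 15.99 to 24.1) and by a narrow gap for Glra3, and overlap for Glra1, Glra2 and Gphn, while Glra4 was above 0 in 1 sample.

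Glra2 encodes the alpha2 subunit, the principal alpha subunit of immature neurons. Its RPKM was 16.6, 39.3 and 6.62 in Dbx1 samples 1 to 3, against 7.17, 10.5 and 8.82 in non-Dbx1 samples 1 to 3, from 145 to 933 reads. The non-Dbx1 samples lay close together, whereas the Dbx1 samples held both the highest and the lowest value of all 6, and the groups overlapped. The group means were 20.9 ± 16.8 and 8.83 ± 1.67 RPKM (SD, n = 3 each), with L2FC = 0.85 ± 0.57 (SE) and a 95% interval of -0.44 to 2.14 (limma, FDR = 0.936). Without Dbx1 sample 2 the L2FC was 0.25, and without Dbx1 sample 3 it was 1.45.

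Glra1 encodes the alpha1 subunit of mature glycinergic synapses, whose loss underlies startle disease. Its RPKM was 1.06, 1.83 and 5.87 in Dbx1 samples, against 5.19, 3.66 and 2.33 in non-Dbx1 samples, from 30 to 145 reads. Values of the groups were interleaved, with the lowest and the highest again among the Dbx1 samples. Means were 2.92 ± 2.58 and 3.73 ± 1.43 RPKM, and the L2FC was -0.42 ± 0.64 with a 95% interval of -1.87 to 1.04 (limma, FDR = 0.966). The antisense gene Gm12236 had an RPKM of 4.60 in Dbx1 sample 3, where Glra1 was highest, and 0 in the other 5 samples. Whether reads of the 141 shared bases contributed to the Glra1 value of that sample was not tested.

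Glra3 encodes the alpha3 subunit, known from pain circuits of the dorsal horn and found in respiratory neurons of the brainstem. It was at 5.79, 5.80 and 6.46 RPKM in Dbx1 samples, against 5.55, 0.0232 and 5.75 in non-Dbx1 samples. Non-Dbx1 sample 2 was near 0 and the other 5 samples lay within a narrow band. That sample held 2 reads on Glra3, whereas the others held 362 to 547, and its RPKM is under the 0.0347 that 3 reads would give there. Means were 6.02 ± 0.38 and 3.77 ± 3.25 RPKM, and the L2FC was 0.98 ± 0.77 with a 95% interval of -0.78 to 2.73 (limma, FDR = 0.944). The groups did not overlap, but the lowest Dbx1 value (5.79) and the highest non-Dbx1 value (5.75) were almost the same. Without non-Dbx1 sample 2 the L2FC was 0.08, so the difference rested on that sample. It is also the sample with the endothelial marker sum of 65.4 RPKM, of which Cldn5 gave 63.7.

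Glra4 encodes the alpha4 subunit, for which little is known in the brainstem. It had an RPKM of 1.56 in Dbx1 sample 1, from 42 reads at its summed length of 3378 bases, and 0 in the other 5 samples. It is the same sample in which Tph2 was found. No reads allow for up to 0.0941 to 0.137 RPKM in those samples, taking 3 reads as the floor, which covers counting error only. With a value above 0 in only 1 sample it did not enter the test.

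Glrb encodes the beta subunit that ties the receptor to gephyrin. Its RPKM was 47.7, 31.4 and 30.3 in Dbx1 samples, against 19.4, 15.99 and 24.1 in non-Dbx1 samples, from 1071 to 3248 reads. The lowest Dbx1 value exceeded the highest non-Dbx1 value. Means were 36.5 ± 9.77 and 19.8 ± 4.05 RPKM, a ratio of 1.84, and the L2FC was 0.84 ± 0.29 with a 95% interval of 0.18 to 1.50. Unadjusted, the limma p was 0.0189, and adjusted over all genes the FDR was 0.912 (exact two-sided permutation test, p = 0.1, the smallest that 3 against 3 samples allow). Leaving out any of the samples in turn gave an L2FC of 0.63 to 0.98, and the unadjusted limma p was above 0.05 without Dbx1 sample 1 (0.0785) and without non-Dbx1 sample 2 (0.0671). Without non-Dbx1 sample 1, the sample highest in haemoglobin and oligodendrocyte transcripts, the L2FC was 0.83.

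Gphn encodes gephyrin. Its RPKM was 43.0, 23.0 and 32.1 in Dbx1 samples, against 38.5, 19.8 and 35.0 in non-Dbx1 samples, from 575 to 1163 reads. The groups overlapped over almost their whole range. Means were 32.7 ± 10.03 and 31.1 ± 9.93 RPKM, and the L2FC was 0.08 ± 0.34 with a 95% interval of -0.70 to 0.87 (limma, FDR = 0.989). Of the 5 genes tested it varied least between samples, with a highest value 2.18 times the lowest, against 2.98 for Glrb, 5.52 for Glra1, 5.95 for Glra2 and 279 for Glra3.

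The makeup of the alpha subunits varied widely between samples of the same group. Of the RPKM summed over the 4 alpha genes, Glra2 held 66.4%, 83.7% and 34.9% in Dbx1 samples, against 40.0%, 74.1% and 52.2% in non-Dbx1 samples. As deposited Glra2 was the largest share in every sample, with 3 nearly even shares in Dbx1 sample 3, but per merged exon length Glra1 was the largest in Dbx1 sample 3 (38.7% against 29.6% for Glra2) and in non-Dbx1 sample 1 (36.5% against 34.3%). Glra1 held 4.24%, 3.90% and 31.0% in Dbx1 samples, against 29.0%, 25.8% and 13.8% in non-Dbx1 samples. The Glra2 level was 15.7 and 21.4 times the Glra1 level in Dbx1 samples 1 and 2, and 1.13 to 3.78 times in the other 4 samples. Glra3 held 12.4% to 34.1% in 5 samples and 0.163% in non-Dbx1 sample 2. For each of these shares the groups overlapped (exact two-sided permutation tests, p = 0.4 for Glra1, 0.8 for Glra2 and 0.8 for Glra3, each with an adjusted p of 1.0). With 3 against 3 samples this test can reach no p under 0.1.

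**Figure D3:**
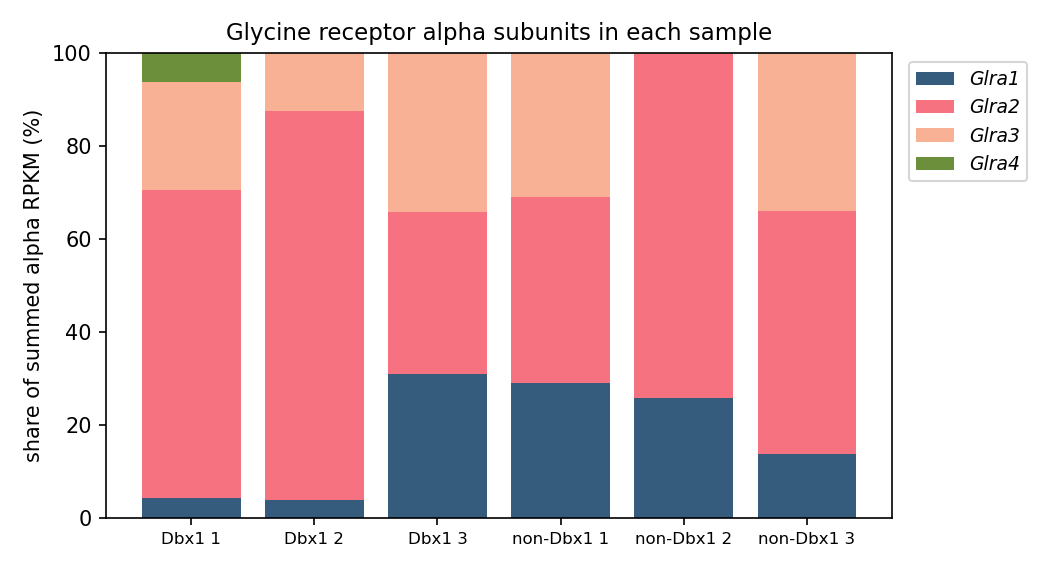
Share (%) of each alpha subunit gene in the summed alpha RPKM of each of the 6 samples, as stacked bars from 0 to 100. On the deposited lengths plotted here Glra2 is the largest share in every sample (34.9% to 83.7%), which merged lengths turn in Dbx1 sample 3 and non-Dbx1 sample 1, Glra1 is small in Dbx1 samples 1 and 2 (4.24% and 3.90%), and Glra3 is nearly missing in non-Dbx1 sample 2 (0.163%).

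Summed over the 4 alpha genes, the level was 25.1, 47.0 and 19.0 RPKM in Dbx1 samples, against 17.9, 14.2 and 16.9 in non-Dbx1 samples. With Glrb added, the receptor sum was 72.8, 78.3 and 49.2 RPKM against 37.3, 30.2 and 40.9. Both sums had groups that did not overlap, higher in Dbx1, with exact permutation p = 0.1 for each. For the alpha sum the gap was narrow (19.0 against 17.9 RPKM). The receptor sum holds Glrb, whose groups were separate by themselves, so it is not a separate result. Means of the receptor sum were 66.8 ± 15.4 and 36.1 ± 5.48 RPKM (SD, n = 3 each). Glrb held 65.6%, 40.0% and 61.5% of the receptor sum in Dbx1 samples, against 51.9%, 53.0% and 58.7% in non-Dbx1 samples, and these overlapped (exact permutation test, p = 0.9).

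The groups overlapped for Gphn and not for Glrb, and the ratio between these genes separated the groups. The ratio of Gphn to Glrb RPKM was 0.902, 0.734 and 1.06 in Dbx1 samples, against 1.99, 1.24 and 1.45 in non-Dbx1 samples. Every non-Dbx1 sample had more Gphn for its Glrb than any Dbx1 sample. On the log2 scale the groups differed by -0.78, from -0.17 ± 0.27 to 0.61 ± 0.35 (exact permutation test, p = 0.1, the smallest possible, and adjusted p = 0.6 over the 6 quantities of this kind). Leaving out any sample gave a difference of -0.94 to -0.59.

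The GABA-A receptor, gephyrin's other cargo, was read from 16 subunit genes. Their summed level was 165, 148 and 128 RPKM in Dbx1 samples, against 83.6, 99.4 and 127 in non-Dbx1 samples. It was higher in Dbx1 without overlap, but by a narrow gap between Dbx1 sample 3 and non-Dbx1 sample 3. Gabra5 alone gave 64.05, 67.2 and 50.3 RPKM of it in Dbx1 samples, against 21.7, 25.7 and 29.9 in non-Dbx1 samples. Whether the sum separates without Gabra5 was not tested. The GABA-A sum exceeded the glycine receptor sum in all 6 samples by 1.89 to 3.30 times (mean 2.57 ± 0.54, SD, n = 6), the most regular result a sign-change test over 6 samples can have. These are sums over 16 and 5 genes on the deposited lengths. The size of the ratio depends on those lengths, and it was not computed on merged exon lengths. The ratio overlapped between the groups (exact permutation test, p = 0.3). Of 12 GABA-A genes tested, none passed the FDR in limma, and the median L2FC was 0.19. Groups did not overlap for 4, all higher in Dbx1 and none lower, beside 5.35% higher and 5.24% lower of all tested genes. At an unadjusted limma p under 0.05, 2 were higher and 1 lower, beside 2.73% higher and 2.48% lower of all tested genes. The lower 1 was Gabrq, with overlapping groups (L2FC = -1.70 ± 0.73, limma FDR = 0.912). Gabra5, also the highest of the list, is the alpha subunit of many extrasynaptic receptors (L2FC = 1.20 ± 0.24, limma FDR = 0.697). Gabrb1 encodes a beta subunit and had an L2FC of 1.22 ± 0.33 (limma FDR = 0.787). Gabra2, a synaptic alpha subunit with RPKM of 7.01 to 9.75 in the Dbx1 and 2.93 to 5.79 in the non-Dbx1 samples, had an L2FC of 0.77 ± 0.42 (limma FDR = 0.924).

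Other proteins of the inhibitory postsynaptic site were read from 17 genes, all of them tested. None passed the FDR in limma, and 9 were above 0 and 8 below with a median L2FC of 0.12. Groups did not overlap for 3 genes, beside 10.6% of all tested genes. Slitrk3 encodes an adhesion protein that organises inhibitory synapses, and its RPKM was 7.49, 9.22 and 12.1 in Dbx1 samples, against 1.76, 1.86 and 4.85 in non-Dbx1 samples (L2FC = 1.54 ± 0.49, limma FDR = 0.87). Igsf9b, another adhesion protein of inhibitory synapses, had 9.55, 9.24 and 12.8 RPKM against 7.08, 2.66 and 4.18 (L2FC = 1.09 ± 0.43, limma FDR = 0.912). For both genes the groups were separate, with Dbx1 higher. Vasp, an actin regulator of the family that binds gephyrin, had 2.97, 2.11 and 1.41 RPKM in Dbx1 and 5.21, 4.89 and 5.17 in non-Dbx1 samples, with groups that were lower in Dbx1 without overlap (L2FC = -0.97 ± 0.50, limma FDR = 0.917). The highest of the list was Pfn2, a profilin that also binds gephyrin, with 155 to 238 RPKM (L2FC = -0.21 ± 0.23, limma FDR = 0.958).

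Genes of glycine transport, synthesis and cleavage numbered 9, all tested, with 3 above 0, 6 below, a median L2FC of -0.29 and none past the FDR in limma. Shmt1, which makes glycine from serine in the cytosol, was at 0.120, 0.0181 and 0.0588 RPKM in Dbx1 samples, against 0 in non-Dbx1 samples, so its groups did not overlap at a level close to 0 (L2FC = 0.09 ± 0.13, limma FDR = 0.964). Only Shmt1 of the 9 genes had groups without overlap, beside 10.6% of all tested genes. Gldc, the decarboxylase of the glycine cleavage system, had 0.335, 0 and 0 RPKM against 2.47, 2.15 and 0 (L2FC = -1.01 ± 0.50, limma FDR = 0.912). Both enzymes were thus low and uneven between samples. Slc32a1, the vesicular transporter that loads glycine and GABA, had 15.5, 6.69 and 9.56 RPKM against 22.4, 10.3 and 18.6, with overlapping groups (L2FC = -0.65 ± 0.41, limma FDR = 0.936). Dld, a subunit shared by the cleavage system and other dehydrogenases, was the highest of the list at 56.6 to 98.7 RPKM (L2FC = -0.23 ± 0.28, limma FDR = 0.96).

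The molybdenum cofactor pathway, gephyrin's other role, was read from 7 genes, of which 5 were tested. None passed the FDR in limma, 2 were above 0 and 3 below, and the median L2FC was -0.52. Suox encodes sulfite oxidase, an enzyme that needs the cofactor, and its RPKM was 5.09, 5.26 and 0 in Dbx1 samples, against 18.8, 14.2 and 9.34 in non-Dbx1 samples. All Dbx1 values were below all non-Dbx1 values (L2FC = -2.12 ± 0.74, limma FDR = 0.912). Only Suox of the 5 genes tested had groups without overlap, beside 10.6% of all tested genes. Mocs3, which prepares sulfur for the cofactor, had 1.02, 2.29 and 6.99 RPKM against 8.39, 11.5 and 5.70, with overlap (L2FC = -1.30 ± 0.60, limma FDR = 0.912). Mocs2, a subunit of molybdopterin synthase, had 4.64 to 6.59 RPKM against 5.20 to 11.6, also with overlap (L2FC = -0.52 ± 0.42, limma FDR = 0.949).

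Whether glycine inhibits or excites depends on chloride, which Slc12a2 (NKCC1) brings into neurons and Slc12a5 (KCC2) removes. Slc12a2 had 2.99, 2.44 and 7.54 RPKM in Dbx1 samples, against 16.4, 3.58 and 7.15 in non-Dbx1 samples (L2FC = -0.82 ± 0.61, limma FDR = 0.942). Slc12a5 had 11.8, 23.7 and 23.9 RPKM against 34.4, 13.3 and 16.2 (L2FC = -0.05 ± 0.43, limma FDR = 0.993). Both overlapped between the groups, and the highest value of each was in non-Dbx1 sample 1. Nova1 and Nova2, neuronal splicing regulators with Glra2 among their known targets, were at 25.8 to 47.0 RPKM and 2.28 to 7.02 RPKM and overlapped between the groups (L2FC = 0.35 ± 0.26 and 0.28 ± 0.52, limma FDR = 0.94 and 0.972).

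**Figure D4:**
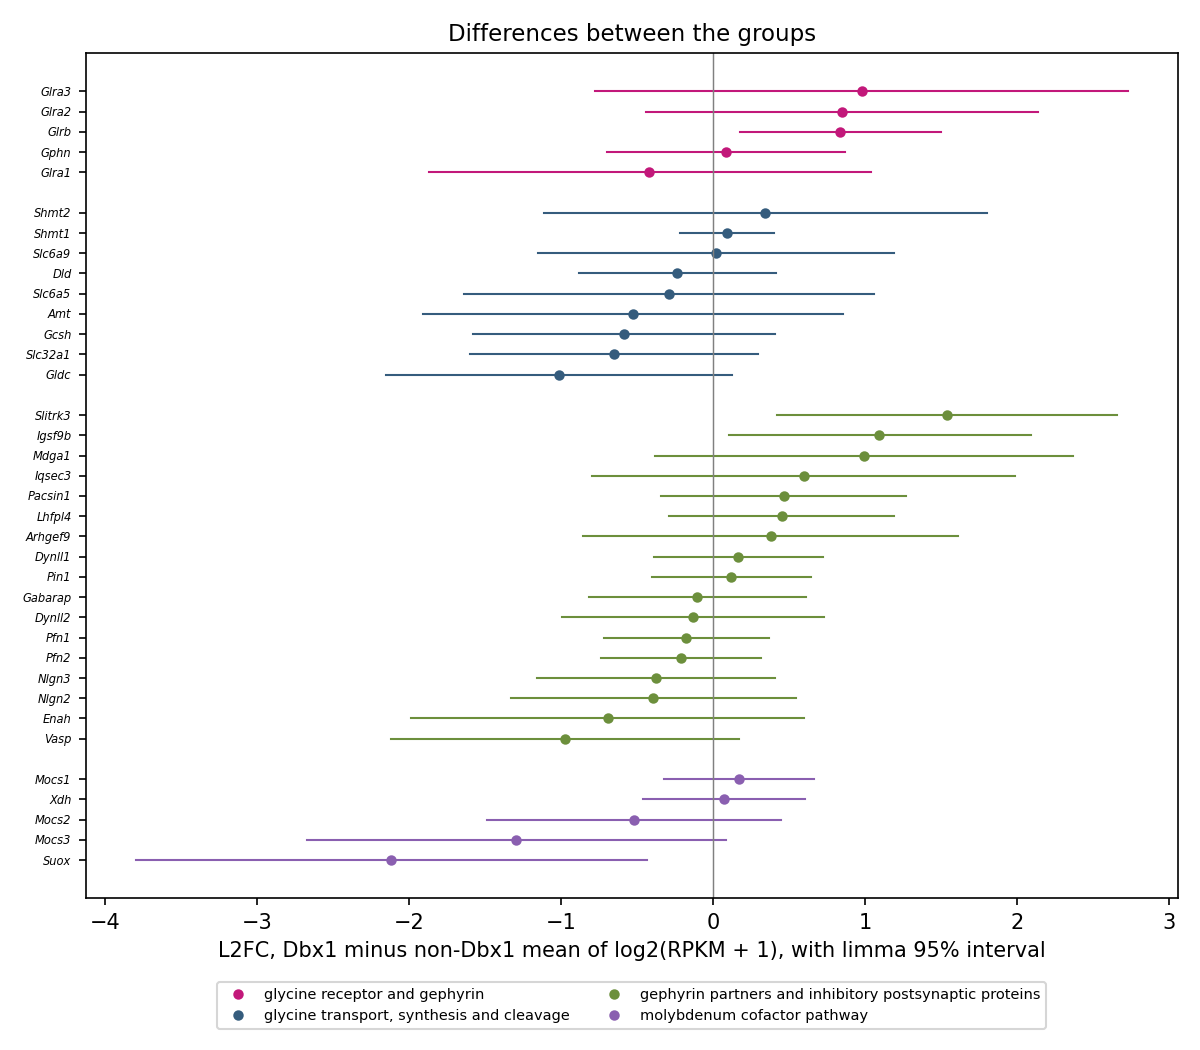
L2FC (horizontal axis, Dbx1 minus non-Dbx1 mean of log2(RPKM + 1)) with limma's 95% interval for the 5 members tested and the genes of 3 related lists, 1 line per gene and ordered by L2FC within each list. Glrb is the member whose interval lies above 0 (0.18 to 1.50), those of Glra1, Glra2, Glra3 and Gphn span 0, and no gene shown passed an FDR of 0.1.

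For each member tested, the genes with the most similar pattern over the 6 samples were looked up among about 7054 genes with a mean RPKM of at least 5, by the root mean square difference between log2(RPKM + 1) values centred on each gene's mean. Smaller is more alike, and the genes were chosen for their likeness, so the values are a description. Nearest to Glrb were RP23-385N1.1 (0.116) and Fam92a (0.143), beside a median of 0.671 over all genes searched. Nearest to Glra2 were Plcb4 (0.215), a phospholipase C of neurons, and Frg1 (0.289), beside a median of 0.947. Nearest to Glra3 were Epha5 (0.167), an ephrin receptor, and Ccdc181 (0.298), beside a median of 1.14. Both shared the low value in non-Dbx1 sample 2, with Epha5 at 1.81 RPKM there and 12.4 to 17.8 elsewhere, and Ccdc181 at 5.82 there and 21.6 to 33.0 elsewhere. Nearest to Glra1 were Tspan9 (0.159) and Ccdc64 (0.168), beside a median of 0.792, and nearest to Gphn were Cdc42ep4 (0.0775) and Syce2 (0.0962), beside a median of 0.6.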

How the data were processed

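RNA of 15 neurons per sample was amplified as full-length complementary DNA and sequenced. The authors aligned reads to mm10 with TopHat2, used SAMtools, counted reads on genes with HTSeq without regard to strand, and deposited RPKM values, computed with exon lengths of an Ensembl annotation whose release is not given in the sources used here. The authors tested counts with DESeq2. Counts were not used here, so log2(RPKM + 1) was tested with limma 3.58.1 in R 4.3.3 (eBayes with trend, two-sided, no covariate) over genes above 0 in at least 3 samples. Reads were recovered as the whole numbers behind RPKM values, and they include amplified copies, so floors of 3 reads cover counting error only. Depth was 6464675 to 9432958 reads on genes. Single quantities used exact permutation tests. Replicates are different mice. The 6 members, the gene lists and the rule for named list genes (non-overlapping groups, then the largest L2FC until 3 are named, and the highest mean) were chosen with earlier results of these data known. The limma script was tested on simulated data. Alternatives were another pseudocount, other filters, size factors, quantile normalization, no trend, voom on recovered reads, the replicate number as a block, merged exon lengths and each sample left out. Some results that the rule for named genes would give are not reported here. Positions and sequences came from GENCODE vM21.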

Additional observations from a re-analysis of the deposited data

How the results depend on the processing

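With 3 samples a group, only differences larger than the spread between samples can pass an FDR of 0.1, and RPKM near 0 rests on a few reads. That spread joins mouse, picked cells and amplification, which the design cannot tell apart. No member passed that FDR under any alternative, and its range was 0.745 to 0.999 for Glrb and 0.769 to 0.999 for Glra2. The count of genes past the FDR was 1, and it was 0 with a pseudocount of 0.1, with all genes above 0 in at least 1 sample, and with voom on recovered reads, and 3 without the trend (D930028M14Rik, Cmbl and Gm25190, limma throughout). It was 0 to 1 when samples were left out, and 0 without non-Dbx1 sample 3. The 1 gene was higher in Dbx1 without non-Dbx1 sample 2, but lower in the main fit and the other fits with 1 gene. Genes at an unadjusted limma p under 0.05 numbered 974 (pseudocount of 0.1), 777 (above 0 in at least 1 sample), 748 (voom), 1009 (no trend) and 1026 (without non-Dbx1 sample 3). Samples with the same replicate number did not deviate together (correlations of -0.11, 0.02 and -0.05 over genes). With the replicate number as a block 0 genes passed (819 at unadjusted p under 0.05), and the FDR of Glrb was 0.98. Gphn changed direction without Dbx1 sample 1 (-0.13) and without non-Dbx1 sample 2 (-0.20), with a range of -0.20 to 0.31, far from the threshold throughout. Without 1 sample in turn the L2FC ranged from -0.92 to -0.05 for Glra1, 0.25 to 1.45 for Glra2, 0.08 to 1.44 for Glra3 and 0.63 to 0.98 for Glrb. Glra3 had an L2FC of 2.74 with voom and 1.94 with a pseudocount of 0.1. On merged exon lengths Gphn minus Glrb became -0.78, because the length of Glrb shrinks most. The median L2FC of the GABA-A list was 0.43 with a pseudocount of 0.1, and with samples left out it was 0.11 to 0.31. Medians without a sample were -0.65 to -0.16 for glycine transport, synthesis and cleavage, 0.00725 to 0.224 for postsynaptic proteins and -0.91 to -0.42 for the molybdenum cofactor pathway. Of the 95 values recomputed with another setting, counts of genes aside, 90 kept their sign, and of the 126 with a sample left out 116 did. Besides Gphn, the signs that changed were in values within the spread of the samples: the share differences of Glra2 (-4.77 without Dbx1 sample 2), Glra3 (-9.31 without non-Dbx1 sample 2), Glra4 (0 without Dbx1 sample 1) and Glrb (-3.79 without Dbx1 sample 1), and the order of Gphn and Glrb in Dbx1 samples alone (-0.16) and of Glra3 and Glra1 in non-Dbx1 samples alone (-0.36). Merged exon lengths for shares were added after seeing the data and changed the sign of no group difference.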
